A study of Mus musculus with 50 samples.

Results

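These are the 5557 promoter regions at which the glucocorticoid receptor (GR) and the transcription factor NFIA both had peaks in astrocytes of the mouse primary visual cortex (V1). They made up 44.6% of the 12458 astrocyte GR sites. A GR site was a merged region with a peak in at least 2 of the 3 GR libraries of normally reared (NR) mice, and an NFIA site was defined in the same way from the 3 NFIA libraries. A member was a GR site that overlapped an NFIA site by at least 1 bp and had its midpoint within 500 bp of an annotated transcription start site (TSS) on mm10. These 6 libraries therefore chose the sites, and their values are given only as a description. The other 33 of the 39 libraries played no part in the choice.

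CUT&RUN releases short DNA fragments around an antibody-bound protein, and each library was deposited as a list of peaks. Nuclei of V1 were taken at postnatal day 14 from pools of 3 to 5 mice, 175000 per library. Astrocyte nuclei were GFP+ nuclei sorted after injection of an AAV whose GfaABC1D promoter drove either an inactive Cre (ΔCre) or Cre, each with EGFP-KASH. Dark-reared (DR, in darkness from birth, 3 GR libraries) and NR mice (3 GR and 3 NFIA libraries) are labelled WT. GR-Con (ΔCre, 2 GR libraries) and GR-KO mice (Cre, 2 GR libraries) were normally reared. According to the study's methods both carry the floxed GR allele (GRfl/fl), and the deletion depends on the cells in which this promoter drove Cre. Oligodendrocytes (Oligo), inhibitory neurons (InN) and excitatory neurons (ExN) were GFP+ nuclei of normally reared mice carrying Sun1-GFP with Olig2-Cre, Slc32a1-Cre or Slc17a7-Cre, each with 3 GR and 3 NFIA libraries. 3T3 cells, a mouse fibroblast line, received vehicle or 200 nM dexamethasone (DEX), a synthetic ligand of GR, for 2 h, with 2 GR libraries for each treatment at 50000 and at 250000 nuclei.

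GR, encoded by Nr3c1, is a nuclear receptor that is held in the cytoplasm by heat shock protein chaperones until it binds a glucocorticoid, after which it enters the nucleus. It can bind DNA directly at the glucocorticoid response element (GRE), a pair of inverted AGAACA-like half-sites, or be recruited by other proteins. NFIA belongs to the nuclear factor I (NFI) family, which recognises TTGGCA half-sites and drives the formation of astrocytes. Many mammalian promoters lie in CpG-rich stretches of open chromatin and carry GC boxes (bound by SP and KLF factors), CCAAT boxes (bound by NF-Y) and ETS sites.

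The sequences below are examples of the motifs described further on. They are GRCm38.p6 (mm10) sequence from RefSeq, written 5′ to 3′, and the capitals mark the motif named for each set. The first set shows the 3 members with a full GRE within 50 bp of the GR summit. They were AC167363.2 (chr17:29094691-29094720), Atf7ip (chr6:136518752-136518781) and Gm14488 (chr2:30716838-30716867), all on the plus strand. Only the Gm14488 window lies in an annotated exon.
AC167363.2: atttggcgGGCACAGTATGTTCCcagggaa
Atf7ip: gtgggtggAGTACATAGTGTGCCcacgaag
Gm14488: cgcagaaaGGAACAGAATGTGCCctaccta
The next set shows the motif GGAANNTTCC in 5 of the 7 members that had a peak in all 3 DR libraries. The windows were Mrpl45 (chr11:97315764-97315793), Frmd8os (chr19:5845885-5845914), Gm12500 (chr3:108085934-108085963) and Stip1 (chr19:7040273-7040302) on the plus strand, and Ptms (chr6:124920233-124920262) on the minus strand, the strand of its gene. The Mrpl45 and Gm12500 windows lie in annotated exons, and the Frmd8os, Ptms and Stip1 windows do not.
Mrpl45: cgcgcgccctGGAAAATTCCactccccagc
Frmd8os: cagaaagcctGGAAAATTCCactcggtggc
Gm12500: gcctgtcttgGGAAAATTCCactgaccggc
Ptms: ctccctGGAATTTTCCactgcagctgcctc
Stip1: tgttctttctGGAAATTTCCacaactctca
The last set shows the bases within 50 bp of the GR summit, on the plus strand, of 3 members with peaks in many libraries and of 2 astrocyte members. Capitals mark CCAAT boxes (ATTGG where the box lies on the other strand) and the NFI half-site. The windows were Ska2 (chr11:87108923-87109023), Pja2 (chr17:64332069-64332169), Camta1 (chr4:151861968-151862068), Nfix (chr8:84774466-84774566) and Slc1a2 (chr2:102658393-102658493).
Ska2: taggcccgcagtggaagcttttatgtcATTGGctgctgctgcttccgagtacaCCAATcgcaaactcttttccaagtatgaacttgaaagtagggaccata
Pja2: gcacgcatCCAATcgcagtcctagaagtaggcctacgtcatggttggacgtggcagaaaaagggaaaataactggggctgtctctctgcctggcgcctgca
Camta1: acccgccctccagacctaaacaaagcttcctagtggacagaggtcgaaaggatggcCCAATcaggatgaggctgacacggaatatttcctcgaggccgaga
Nfix: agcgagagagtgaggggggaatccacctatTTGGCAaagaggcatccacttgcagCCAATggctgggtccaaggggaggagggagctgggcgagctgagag
Slc1a2: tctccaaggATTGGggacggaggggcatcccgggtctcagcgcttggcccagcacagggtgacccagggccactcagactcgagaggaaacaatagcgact
Nfix carried the NFI half-site beside a CCAAT box. The Ska2, Pja2 and Camta1 windows held CCAAT boxes and no NFI half-site, and so did that of Slc1a2, the other astrocyte member.

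The libraries differed widely in size, from 1 peak in ExN NFIA replicate 3 to 27143 in astrocyte NFIA replicate 1, and read depth is unknown because the files hold no counts. Of the 3 GR libraries that chose the sites, replicate 2 held 2262 peaks and called 11.7% of the members, against 98.8% for replicate 1 and 100% for replicate 3. The member list thus rested on replicates 1 and 3, and 587 members (10.6%) were called in all 3. This was a lower share than among the 6315 GR sites with NFIA away from promoters, of which 1210 (19.2%) were called in all 3. Without replicate 1 or replicate 3 the rule left 652 or 584 members. By contrast, 94.9% of members overlapped a peak in all 3 NFIA libraries.

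Nearly every astrocyte GR site at a promoter was also an NFIA site. Members were 97.7% of the 5688 promoter GR sites, and 131 promoter GR sites lacked NFIA. Away from promoters the share was 93.3% (6315 of 6770 GR sites), and these 6315 distal sites with NFIA serve below as the comparison. NFIA reached further, with 3934 promoter sites that had no GR site. Because the sites were chosen on GR and NFIA peaks, these overlaps describe the lists and carry no test.

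The members clustered tightly just upstream of transcription starts. The GR summit lay a median of 55 bp from the nearest TSS (interquartile range 22 to 117), 75.1% of summits were upstream of it, and 70.3% were within 100 bp. Members were a median of 240 bp wide. At the edge of the rule, the midpoints of the Dock6, Map2 and Gm20383 sites lay 498.5, 498 and 498 bp from a TSS, and those of the Iqcn, Smc5 and Pdcl sites, just outside, lay 502, 502.5 and 502.5 bp away. Both proteins had nearly the same summits at these sites, a median of 19 bp apart against 24 bp at distal sites, and 79.1% of member summit pairs were within 50 bp against 73.8%. The order of fold enrichment was also shared, with a Spearman correlation across members of 0.780 between GR and NFIA, against 0.598 across distal sites. This correlation is over sites in the same nuclei type and shares local chromatin and base composition, so it is a description only.

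**Figure D1:**
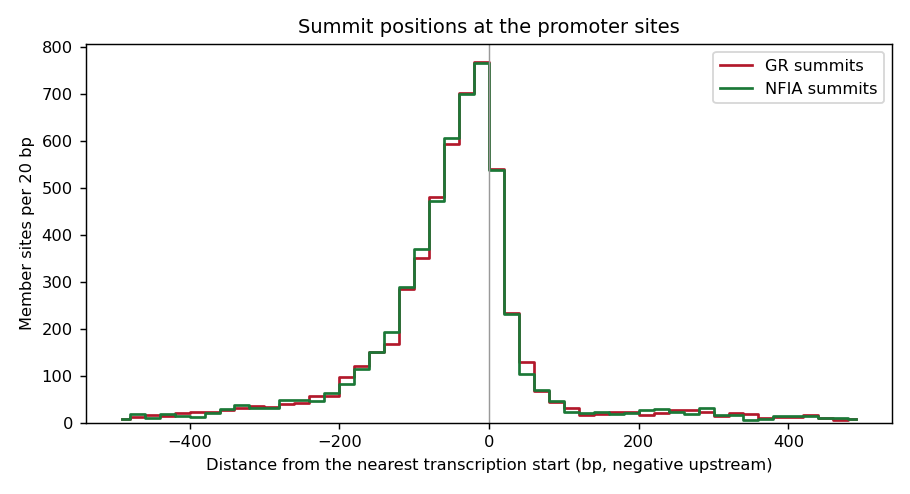
Number of members per 20 bp by the distance of the GR summit (red) and the NFIA summit (green) from the nearest TSS, negative upstream. The highest bin, centred 10 bp upstream of the TSS, held 768 GR and 766 NFIA summits, and the curves nearly coincide.

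Most members were CpG-rich promoters of protein-coding genes. A window around the summit met the CpG-rich criterion (more than 50% G and C and an observed to expected CpG ratio above 0.6) at 80.4% of members, 73.8% of promoter NFIA sites without GR, 46% of all protein-coding transcript starts and 6.64% of distal sites. Median G and C content was 63.1% at members and 51.3% at distal sites. The nearest start belonged to a protein-coding gene at 90.0% of members, and 21.2% of members had starts of both strands within 500 bp. In all, 5298 of 21911 protein-coding genes (24.2%, the background for the gene lists below) had a member at a start.

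The NFI half-site was about as frequent at member GR summits as 1 kb away, and the GRE half-site was less frequent. Base composition was not matched between these windows. Within 50 bp of the GR summit, TTGGCA occurred at 5.09% of members (95% Wilson interval 4.55 to 5.70). It occurred at 4.90% of windows 1 kb away (4.52 to 5.32), 3.74% of all protein-coding starts and 18.8% of distal sites. Around the NFIA summits of members the share was higher, 6.08% (5.48 to 6.74), and at promoter NFIA sites without GR it was 7.57%. Close to the GR summit, 20 bp bins centred 10 bp upstream and downstream held the half-site at 1.40% and 1.19% of members. Bins centred 290 bp away held it at 0.756% and 0.864%. The GRE half-site AGAACA occurred at 2.99% of members and 7.43% of their flanks, against 11.3% of distal sites. It occurred at 5.63% of all protein-coding starts and 3.30% of promoter NFIA sites without GR. A full GRE was found at 3 of 5557 members (0.0540%) and at 50 of 6315 distal sites (0.792%). Motifs were searched on both strands, and a match is only a match of letters.

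Promoter motifs were frequent instead. The GC box GGGCGG occurred at 44.0% of member summits, 4.52% of flanks and 24.1% of all protein-coding starts. The CCAAT box occurred at 25.2% of members, 11.9% of flanks, 11.8% of all starts and 16.3% of distal sites, and the ETS core CCGGAAG at 9.02% of members, 0.684% of flanks and 5.66% of all starts. The NRF1 core GCATGCGC, of a factor that controls mitochondrial genes, occurred at 4.01% of members and 1.32% of all starts. Promoter NFIA sites without GR had similar shares, 42.8% for the GC box, 28.1% for CCAAT and 9.76% for ETS. Of the 1403 members with a CCAAT box, 723 (51.5%) had one that read GCCAAT, which holds the NFI letters GCCAA. In 70 of the 1403 a box overlapped the NFI half-site TTGGCA.

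**Figure D2:**
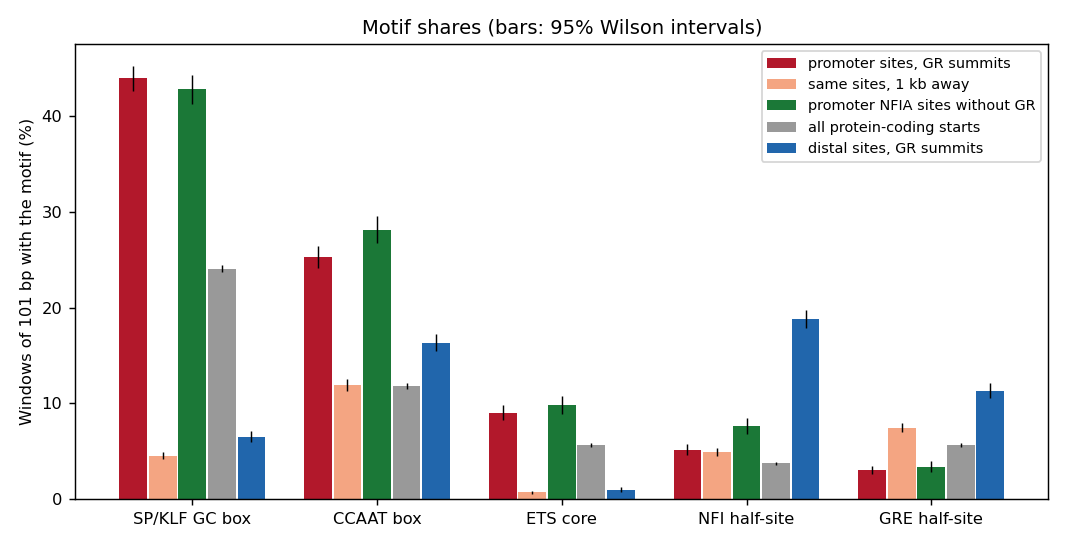
Percentage of windows of 50 bp to either side that hold each motif at member GR summits (red), 1 kb to either side of them (orange), at promoter NFIA sites without GR (green), at all protein-coding starts (grey) and at distal GR summits (blue), with 95% Wilson intervals. GC boxes, CCAAT boxes and ETS cores were more frequent at members than in their flanks, whereas the NFI half-site was most frequent at distal sites (18.8%).

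Fold enrichment over background, as the peak caller gave it, ranged from 1.66 to 42.0 at members in NR replicates 1 and 3, with medians of 6.23 and 8.40. Among members called in all 3 NR libraries, the one with the best mean fold rank was at Mrpl45, a protein of the mitochondrial ribosome, with folds of 16.6, 40.1 and 27.4 in the NR GR libraries and 14.9, 17.3 and 7.77 in the NFIA libraries. Sfxn5, a mitochondrial carrier gene, had GR folds of 24.2, 10.5 and 42.0 and NFIA folds of 30.6, 28.6 and 27.1. The site of Tufm, the mitochondrial translation elongation factor, had GR folds of 25.4, 19.3 and 17.2. The 12 such members with the best rank also included Spaca6, Frmd8os, Itsn1, Mxi1, Nmt2, 4930452A19Rik, Proser1, C2cd3 and Celrr. Each of the 12 was called in both GR-Con libraries, as were 421 (71.7%) of the 587 members called in all 3 NR libraries. NFIA did not follow this order everywhere, since Mxi1, a MAX-interacting repressor, had NFIA folds of 5.12 and 4.42 in replicates 1 and 2 and no NFIA peak in replicate 3.

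GR-Con and GR-KO astrocytes were compared to ask which GR peaks depend on the receptor. GR-Con called 31.1% and 42.6% of members in its 2 libraries, and GR-KO called 4.10% and 2.47%. The groups did not overlap, and the mean difference was 33.6 percentage points, but the exact two-sided permutation test of 2 against 2 libraries cannot go below p = 0.333, which was its value (adjusted p = 0.556 over 10 tests). Both GR-Con libraries called 1218 members (21.9%), against 29.4% of all astrocyte GR sites, and at least 1 GR-KO library called 321 (5.78%), against 12.6%. Of the 1218, 982 (80.6%) had no GR-KO peak, and of the 2388 distal sites called in both GR-Con libraries 61.5% had none. GR-KO replicate 1 held 1846 peaks and replicate 2 held 413, against 7761 and 6792 in GR-Con, so the smaller lists move with the lower shares, and their part in the result was not tested. Nr3c1 RNA and GR protein in these nuclei were not analysed here.

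Several astrocyte genes were called in GR-Con and not in GR-KO, as were most members with a GR-Con peak. Glul, the glutamine synthetase of astrocytes and a known glucocorticoid target, had NR folds of 15, 8.39 and 26.2 and GR-Con folds of 3.79 and 4.38, with no peak in any other of the 33 libraries. Slc1a2, the glutamate transporter GLT-1, had NR folds of 10.0, 4.57 and 21.7 and GR-Con folds of 8.54 and 7.23, again with no other peak. Gjb6, which encodes connexin 30, had GR-Con folds of 13.3 and 5.74. The Nfix site shown above had GR-Con folds of 5.00 and 15.6 and a GR-KO fold of 6.34 in replicate 1, and the Nfia site had GR-Con folds of 3.30 and 7.87 and no GR-KO peak.

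GR-KO peaks were nevertheless present at some members, and 44 (0.792%) were called in both GR-KO libraries, against 0.867% of all astrocyte GR sites. At Traj27, a T cell receptor joining segment, GR-Con folds were 11.7 and 11.6 and GR-KO folds 11 and 8.39. At Chmp4b, a membrane scission protein, they were 14.9 and 13.1 against 10.5 and 7.21. The full-GRE member at Atf7ip, a chromatin regulator, also had GR-KO peaks, with folds of 3.52 and 5.81 beside 5.40 and 6.09 in GR-Con. Folds of separate libraries are relative to their own background and were not tested against each other. Of the 321 members with a GR-KO peak, 236 (73.5%) were called in both GR-Con libraries and 21 (6.54%) in neither.

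Dark rearing left few of these sites called. The DR libraries called 0.216%, 0.144% and 0.828% of members, while holding 69, 28 and 293 peaks in all. The NR libraries chose the sites, so the contrast of NR with DR is fixed by the choice and is not tested. At least 1 DR library called 48 members (0.864%), against 1.8% of all astrocyte GR sites, and 7 members (0.126%) had a peak in all 3, against 0.169%. Those 7 were Mxi1, Frmd8os, Mrpl45, Gm12500, Ptms, Tufm and Stip1.

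For several of these 7, which were chosen by their DR peaks, the ranges of folds overlapped between the rearing conditions. Frmd8os, an antisense transcript, had DR folds of 15.8, 10.7 and 22.5 beside NR folds of 14.1, 16.5 and 28.5. Mxi1 had 13.0, 17.0 and 20.9 beside 12.6, 25.1 and 19.4, and Gm12500, another antisense transcript, had 11.8, 8.14 and 15.9 beside 5.68, 9.29 and 8.03. The DR and NR ranges of these 3 sites overlapped, as did those of Mrpl45, Ptms and Stip1. Mrpl45 had DR folds of 10.9, 9.01 and 17.6 beside NR folds of 16.6, 40.1 and 27.4. At Tufm the ranges did not overlap, with DR folds of 6.83, 6.13 and 11.1 below NR folds of 25.4, 19.3 and 17.2. All 7 were also called in at least 1 vehicle library of the cultured fibroblasts, where Gm12500 had folds of 8.61, 9.42, 12 and 17.7 in the 4 vehicle libraries, and Stip1, a co-chaperone of HSP90, had folds of 12.7, 11.5, 14 and 13.1. Of the 48 members with a DR peak, 25 (52.1%) had a 3T3 peak, against 279 of all 5557 (5.02%). The same share for distal sites with a DR peak is not given here, so whether it is particular to members was not tested.

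The sequence GGAANNTTCC, a pair of inverted GAA units of the kind heat shock factors bind, was looked for after the sequences of these sites had been seen. It occurred within 50 bp of the GR summit at 15 of 5557 members (0.270%), 0.234% of flanks and 0.190% of all protein-coding starts. It was present at 5 of the 7 members called in all DR libraries, at 6 of the 48 called in any, and at 9 of the 5509 called in none (0.163%). In 3 of the 5 (Mrpl45, Frmd8os and Gm12500) the motif and the 3 bases after it were identical in the sequences above, and no other member had this run. At distal sites it was present at 0 of the 11 called in all 3 DR libraries, 9 of the 145 called in any (6.21%) and 22 of the 6170 called in none (0.357%). The motif was chosen on these sites, so the shares are a description.

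GR peaks in other cells of V1 were found at a larger share of members than of distal sites in 8 of 9 libraries, the exception being Oligo replicate 3, and the shares ranged widely between libraries. In ExN the 3 libraries called 21.6%, 0.612% and 8.53% of members against 1.95%, 0.0158% and 0.681% of distal sites. In InN they called 13.6%, 3.35% and 4.39% against 1.69%, 0.507% and 0.602%. In Oligo they called 1.67%, 1.22% and 0% against 0.111%, 0.0950% and 0.0158%, from lists of 110, 81 and 4 peaks, of which 94 and 69 peaks in replicates 1 and 2 lay at members (85.5% and 85.2%). The shares moved with the size of the lists, which in ExN held 4563, 61 and 1644 peaks and in InN 2446, 916 and 1534, and the part of list size was not tested.

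Over members, 1270 (22.9%) had a GR peak in at least 1 ExN library, against 11.4% of all astrocyte GR sites, 920 (16.6%) in InN, against 8.6%, and 116 (2.09%) in Oligo, against 1.02%. InN minus ExN was −3.13 points (exact permutation p = 0.700, adjusted p = 0.875, 3 against 3 libraries) and turned to 2.55 points without ExN replicate 1. The libraries of both overlapped, and InN was above Oligo by 6.15 points in non-overlapping groups, at the smallest p the design allows (exact permutation p = 0.100, adjusted p = 0.222). GR-Con astrocytes were above the 9 libraries of other cells by 30.7 points, but the sites were chosen by GR peaks in astrocytes, so this difference is a description. Neither comparison between the other cell types passed 0.05 after Benjamini-Hochberg adjustment.

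Some members had GR peaks in both neuron classes. In 94 members (1.69%) at least 2 InN and at least 2 ExN libraries had a GR peak, against 0.787% of all astrocyte GR sites. Ephb3, an ephrin receptor, had InN folds of 5.89, 3.22 and 3.26 and ExN folds of 7.33 and 5.00 in replicates 1 and 3. Alcam, a cell adhesion molecule, had InN folds of 4.57 and 2.99 and ExN folds of 4.38 and 3.74 in the same replicates, below its NR astrocyte folds of 11.6 and 22.2. Others by the same rule were Pkd1, Gm26665, Gm17705 and Gm20753.

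NFIA showed the same tilt towards promoters in neurons, with wide spread. The ExN NFIA libraries called 22%, 1.37% and 0% of members, and 2.58%, 0.158% and 0% of distal sites, the last being the library with 1 peak. The InN libraries called 9.30%, 0.378% and 4.30% of members against 2.11%, 0.428% and 1.08% of distal sites, and the Oligo libraries 0.792%, 4.32% and 0.144% against 1.24%, 2.41% and 0.633%. The mean difference between members and distal sites was 3.55 points over the 9 libraries (exact sign-flip p = 0.0625, adjusted p = 0.208, 1.57 points without ExN replicate 1). That between members and promoter NFIA sites without GR was 1.79 points (exact sign-flip p = 0.0469, adjusted p = 0.208). All these sites were chosen by peaks in astrocytes, and the libraries of InN, ExN and Oligo were pooled. Neither test can therefore say whether promoters or sites with GR are favoured in other cells. In all, 1226 members (22.1%) had an ExN NFIA peak, against 11.2% of all astrocyte GR sites, 659 (11.9%) an InN peak, against 6.74%, and 249 (4.48%) an Oligo peak, against 3.33%. InN against ExN (−3.12 points, p = 0.900, and 3.98 points without ExN replicate 1) and InN against Oligo (2.91 points, p = 0.500, and −1.89 points without NR replicate 1 among the libraries that chose the sites) had differences within the spread between libraries by exact permutation.

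GR and NFIA peaks coincided within a cell type at 13.0% of all members in ExN, 4.95% in InN and 1.31% in Oligo. In ExN 722 members had both, which was 56.9% of those with a GR peak and 58.9% of those with an NFIA peak. In InN 275 members had both (29.9% and 41.7%), and in Oligo 73 (62.9% and 29.3%). Of the 1662 members with a GR peak in other cells 60.2% also had an NFIA peak in other cells, against 17.8% of the 3895 without one. The libraries of a cell type share the sort and possibly the IgG control, so these shares are a description. The same shares over all astrocyte GR sites are not given here, so whether the coincidence is particular to members was not tested.

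The shares of promoter and distal sites were set side by side in astrocytes and the other cells. Over the 16 in vivo GR libraries that did not choose sites, the promoter minus distal difference averaged 0.191 points (exact sign-flip p = 0.938, adjusted p = 0.938), a value whose sign turned without any 1 of ExN replicates 1 and 3 and InN replicates 1 and 3. It was below 0 in 6 of the 7 astrocyte libraries (DR, GR-Con and GR-KO together), with a mean of −6.61 points and a range of −24.6 to 0.913, and above 0 in 8 of the 9 libraries of other cells, with a mean of 5.48 points and a range of −0.0158 to 19.7. The group means were −15.5 points in GR-Con, −6.73 in GR-KO and −0.607 in DR, against 6.19 in InN, 9.37 in ExN and 0.892 in Oligo. The astrocyte and other libraries thus differed by −12.1 points, and by −11.4 points within 5 classes of GR fold rank in NR libraries. This comparison was added after the values had been seen. Members and distal sites were both chosen by GR peaks in astrocytes. Distal sites thus entered only through the cell type in which they were called. The difference between astrocyte and other libraries is therefore given without a test, and the sign-flip test over the 16 libraries has the same limit. The cell types differ in labelling and in their IgG library, which cannot be told apart from cell type here.

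**Figure D3:**
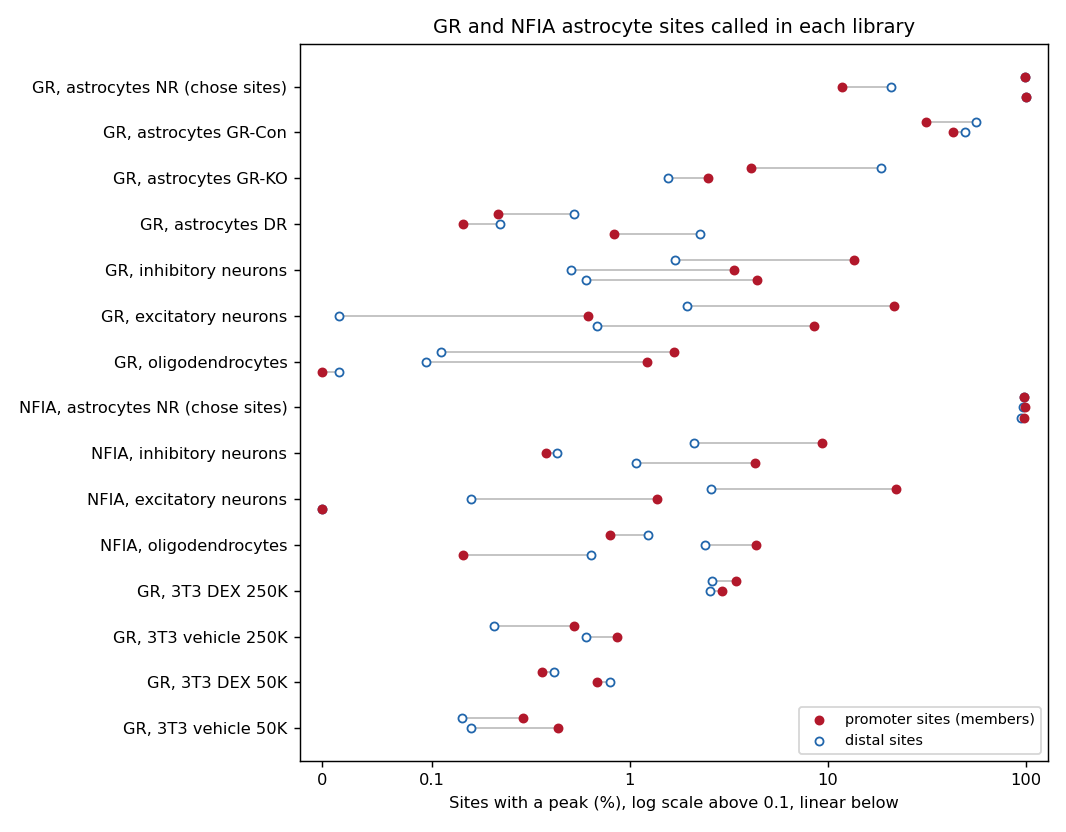
Percentage of members (filled red) and of distal sites (open blue) with a peak in each library, 1 row per replicate, on an axis that is logarithmic above 0.1% and linear below. In InN, ExN and Oligo GR libraries the members lie to the right of the distal sites except in Oligo replicate 3 (0% against 0.0158%), while in GR-Con they lie to the left.

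DEX was compared with vehicle in 3T3 cells to ask which members GR occupies in another cell type when ligand is added. Vehicle called 0.288% and 0.432% of members at 50000 nuclei and 0.522% and 0.864% at 250000, and DEX called 0.360% and 0.684% at 50000 and 3.44% and 2.93% at 250000. At 250000 nuclei the groups did not overlap, whereas at 50000 they did. The DEX lists at 250000 nuclei held 5010 and 4654 peaks, against 382 and 1035 for vehicle. Distal sites were also called more often there, at 2.60% and 2.55% with DEX against 0.206% and 0.602% with vehicle. The rise was thus not particular to members, and the part of list size was not tested. The mean difference was 1.33 points (exact permutation within each number of nuclei, p = 0.111, adjusted p = 0.222, smallest possible 0.0556). Both DEX libraries at 250000 nuclei called 97 members (1.75%), against 1.69% of all astrocyte GR sites, and 56 of these had no vehicle peak.

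Among those 56, the site at 4833404L02Rik had DEX folds of 25.0 and 17.6 at 250000 nuclei and 12.5 and 15.2 at 50000. In astrocytes it had NR folds of 18.1, 6.4 and 37.3 and GR-Con folds of 8.34 and 14.7. Gm14488, one of the 3 members with a full GRE, had DEX folds of 8.23 and 9.19 at 250000 nuclei and no peak in the other 31 libraries. Bsdc1, Skp2, a cell cycle ubiquitin ligase subunit, and Pacsin2, an endocytic adaptor, had DEX folds of 10.9 and 10.4, 10.9 and 8.47, and 7.59 and 8.78 at 250000 nuclei, and no vehicle peak. Per1, a clock gene that glucocorticoids induce, had DEX folds of 7.32 and 14.5 at 250000 nuclei and 7.97 and 4.18 at 50000, with a vehicle fold of 8.99 in 1 of the 4 vehicle libraries.

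Members recurred across cell types in proportions that followed the CCAAT box. Of all members, 1799 (32.4%) had a peak in none of the 33 libraries, 1316 (23.7%) in exactly 1 and 79 (1.42%) in 10 or more. Matching counts over all astrocyte GR sites or distal sites are not given here. Whether these counts are particular to members was therefore not tested. A CCAAT box lay within 50 bp of the GR summit at 47.4% of the 784 members with a GR peak in at least 2 libraries of other cells (95% Wilson interval 44.0 to 50.9), at 36.6% of the 878 with 1, and at 18.2% of the 3895 with none (17.0 to 19.5). Among CpG-rich members the shares were 47.1%, 35.8% and 17.9%, and for boxes not preceded by G, which cannot hold the NFI letters GCCAA, 32.4%, 22.3% and 10.8%. The ETS core went the other way, at 4.21%, 6.95% and 10.4%.

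The same direction was seen library by library. Of the 27 libraries that called at least 20 members, 23 called a higher share of members with a CCAAT box than of those without. In ExN GR replicate 1 the shares were 40.9% and 15.1%, in Oligo GR replicate 1 5.56% and 0.361%, and in 3T3 DEX at 250000 nuclei 6.77% and 2.31% in replicate 1. The 4 exceptions were both GR-KO libraries (2.78% against 4.55%, and 2.14% against 2.58%), InN GR replicate 3 (3.28% against 4.77%) and InN NFIA replicate 3 (3.49% against 4.57%). For the ETS core, 2 of 27 libraries were higher with the motif. This pattern was noticed in these data and is given without a test.

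**Figure D4:**
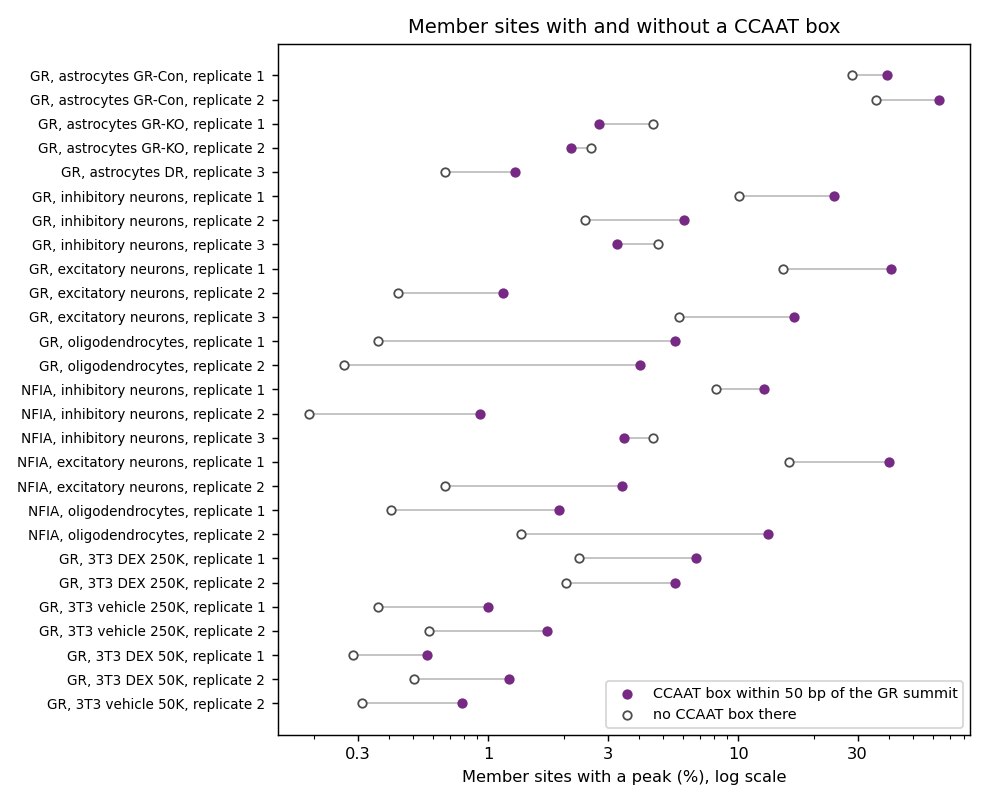
Percentage of members with a peak in each library of at least 20 called members, for members with a CCAAT box within 50 bp of the GR summit (filled) and without one (open), on a logarithmic axis. The filled point lies to the right in 23 of 27 libraries.

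Several of the most recurrent members carried the box. Stip1, called in 23 of the 33 libraries, had GR folds of 3.43 and 3.88 in Oligo and 3.02 and 2.12 in InN replicates 1 and 2, against 2.75, 8.64 and 5.62 in NR astrocytes. Jun, a subunit of the AP-1 factor, was called in 17, including both GR-KO libraries (3.72 and 6.97) and all InN (6.81, 5.39 and 5.06) and ExN libraries (6.90, 3.13 and 3.30). Ska2, a kinetochore protein gene, was called in 15, with 3T3 folds from 5.19 in a vehicle library at 50000 nuclei to 24.1 in a DEX library at 250000, and NR folds of 3.37 and 2.30 in replicates 2 and 3. The other members by this rule were 4932412D23Rik in 18 libraries, Mrpl45 and Pja2 in 17, Camta1 in 16, and Ptms, Hip1 and Hbp1 in 15. Of these, Mrpl45, Ptms and Hip1 had no CCAAT box within 50 bp of the GR summit.

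CCAAT boxes were most frequent at members with low fold ranks in NR astrocytes. Ordered by NR fold into 5 classes from strongest to weakest, members had a CCAAT box at 9.07%, 12.1%, 14%, 22.2% and 58.1%. A GR peak in other cells was found at 27.8%, 22.8%, 24.1%, 24.7% and 44.6% of these classes, and a peak in both GR-Con libraries at 38.6%, 19.8%, 16.7%, 12.9% and 20.2%. A GR-KO peak was found at 13.6% of the strongest class and 1.36% of the weakest. The classes were made from values that chose the sites and have no test.

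Members lay at promoters of nearly all astrocyte markers and of the chosen glial transcription factors, and at none of the neuronal markers. Of the 12 astrocyte markers 11 had a member, Aqp4 being the exception, and all 12 glial transcription factors had one, against 24.2% of protein-coding genes. No marker of excitatory neurons (0 of 6), inhibitory neurons (0 of 8), microglia (0 of 6), endothelial and mural cells (0 of 6) or fibroblasts (0 of 6) had one, and of 8 oligodendrocyte markers only Olig2, a transcription factor gene, did, with no peak in the 33 libraries. None of 1092 olfactory receptor genes had a member. These sites were chosen in sorted astrocytes, so the counts describe the sort as much as the proteins.

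The 15 members at astrocyte markers had no peak in any library of InN, ExN, Oligo or 3T3 cells for either protein, whereas 43.5% of all members had one. A GR-Con peak was found at 12 of 15, against 51.8% of all members (58.7% of all astrocyte GR sites). None had a GR-KO or DR peak, which is near the shares of all members (5.78% and 0.864%) for a list of this size. By comparison, 4932412D23Rik, whose start lies near that of Zbtb20, a glial transcription factor gene, was called in 18 libraries, with Oligo GR folds of 5.23 and 3.70 and ExN GR folds of 3.42, 2.64 and 3.22. The Zbtb20 site by the naming rule, 439 bp from its TSS, had NR folds of 7.30, 4.68 and 5.54 and no peak in the 33 libraries.

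Genes known to respond to glucocorticoids and genes of the GR chaperone machinery had members more often than protein-coding genes at large (24.2%). So did the genes of general cell upkeep below, and no background of expressed genes or of CpG-rich promoters was used. Of 22 canonical GR targets 18 had a member, of 15 GR chaperones 13, and of 19 clock genes 13. Of the 23 sites of the canonical targets 9 were called in both GR-Con libraries, against 21.9% of all members, and 4 in both DEX libraries at 250000 nuclei, against 1.75%. None had a GR-KO peak, which is near the share of all members (5.78%) for a list of this size. Nfkbia, the inhibitor of NF-kB, had at 1 of its 2 members GR-Con folds of 6.77 and 12 and DEX folds of 10.0 and 6.29. Dusp1, a MAP kinase phosphatase gene, had a GR-Con fold of 7.62 in replicate 2 only. Dbp, a clock output gene, had at 1 of its 3 members GR folds of 3.56 in InN and 3.02 in ExN beside GR-Con folds of 2.02 and 2.53.

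Genes named after their values were seen add to this group. Fkbp5, a co-chaperone induced by glucocorticoids, had no GR-Con, GR-KO or vehicle peak and DEX folds of 5.45 and 5.87 at 250000 nuclei. Bcl6, a transcriptional repressor, had NR folds of 17.8 and 23.5 in replicates 1 and 3 and GR-Con folds of 11.1 and 13.8 at 1 of its 2 members, with no other peak in the 33 libraries. Arntl, which encodes the clock activator BMAL1, was called in 11 libraries, including Oligo GR folds of 2.96 and 3.11 and Oligo NFIA folds of 3.10 and 3.40.

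**Figure D5:**
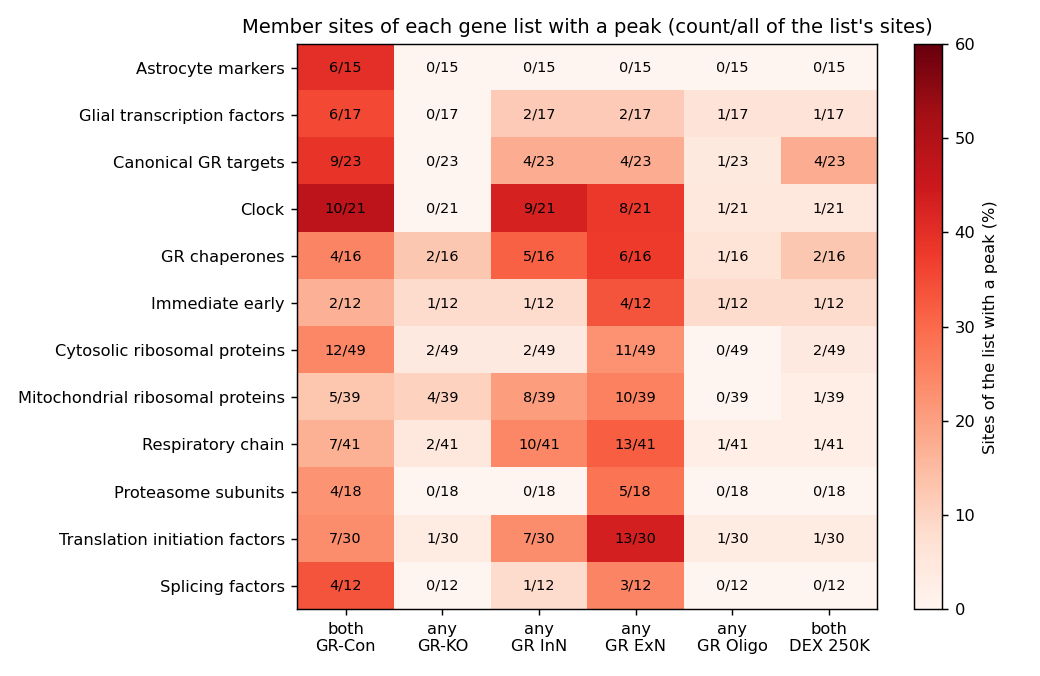
Members of each gene list with a GR peak in both GR-Con libraries, any GR-KO, InN, ExN or Oligo library, or both DEX libraries at 250000 nuclei, as count of the list's member sites, coloured by percentage. Of the astrocyte marker sites 6 of 15 were called in both GR-Con libraries and none in the other columns.

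Genes of general cell upkeep were also frequent. A member was found at 47 of 82 cytosolic ribosomal protein genes, 36 of 78 mitochondrial ribosomal protein genes, 39 of 79 respiratory chain genes, 18 of 39 proteasome genes, 26 of 55 translation initiation factor genes and 11 of 23 splicing factor genes, against 24.2% of protein-coding genes. Ndufb5, a subunit of respiratory complex I, had GR-Con folds of 12.7 and 12 and a GR-KO fold of 12 in replicate 1. Rps2 and Rps3, of the small ribosomal subunit, had GR-Con folds of 3.83 and 6.14, and 4.76 and 4.91, and no other peak in the 33 libraries. The immediate early genes had a member at 11 of 20, and of their 12 sites 4 had a GR peak in ExN, near the 22.9% of all members.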

How the data were processed

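GR and NFIA were profiled by CUT&RUN. According to the submitters' processing notes and the study's methods, the authors used cutadapt for trimming, Bowtie2 for alignment (mm10), Picard for duplicate removal, SAMtools and deepTools for filtering, and MACS2 for peaks of single libraries over IgG. The deposited lists give a fold enrichment (a ratio), −log10 p and −log10 q values and a score made by the authors' peak caller. The score was not used. The highest deposited q was 0.00999 in vivo and 0.0498 in 3T3. Of 50 samples, 11 without a peak list (IgG and GFP-negative libraries) were not analysed here.

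The members and gene lists were chosen with earlier results of these data known. The value of a library was the percentage of sites overlapping its peaks by at least 1 bp. The 10 tests were two-sided exact permutations or sign-flips over libraries with Benjamini-Hochberg adjustment at 0.05 (Python 3.11.15, numpy 2.4.6, scipy 1.17.1), tested on simulated data. P-values measure the spread between these libraries, which may be partly technical. Wilson intervals cover counting error only. Starts and exons were from GENCODE M21. Motifs were searched on both strands within 50 bp of the strongest GR summit. Alternatives changed the number of libraries, promoter width, q, motif window and replicates.

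Named sites took the gene of the nearest TSS. By rule these were the 12 with the best NR fold rank among those called in all 3 NR libraries, those called in all 3 DR or both GR-KO libraries (up to 10), the 10 called in most libraries, those with a full GRE, those in both DEX libraries at 250000 nuclei without vehicle (up to 8), up to 4 per gene list, those at the 500 bp threshold, and up to 6 shared by InN and ExN. One site that this rule names is not reported here.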

Additional observations from a re-analysis of the deposited data

Results flagged for a closer look

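The promoter minus distal difference in the share of sites with a GR peak was lower in astrocyte libraries (DR, GR-Con and GR-KO) than in libraries of other cells, by −12.1 points over 7 against 9 libraries. It is listed because the values lie mostly on opposite sides of 0, with 6 of 7 astrocyte libraries below 0 and 8 of 9 other libraries above 0. The exceptions were GR-KO replicate 2, at 0.913 points, and Oligo replicate 3, at −0.0158 points with 4 peaks. The sites were chosen by GR peaks in astrocytes and the comparison was added after the values were seen, so the difference is given without a test. Labelling and IgG library differ with cell type and cannot be told apart from it.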

How the results depend on the processing

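Of 304 alternative values, 277 were counted as unchanged. Tests had to keep their direction and their side of the threshold. Motif shares and the TSS distance had to move by less than the spread between replicates. The number of members and the share of genes were judged by their ratio to the main value. None of the 10 tests passed 0.05 after adjustment under any alternative. For some this was fixed by the number of libraries, so their unchanged side of the threshold carries no information. These were the exact permutation tests of GR-Con against GR-KO (smallest possible p 0.333), of 3T3 cells (0.0556) and of InN against ExN or Oligo (0.1). The added comparison of astrocytes with other cells kept its direction under every alternative run. Requiring all 3 GR and all 3 NFIA libraries left 579 members, with an NFI half-site share of 6.74%, a median TSS distance of 85 bp, 2.79% of protein-coding genes and an InN minus Oligo NFIA difference of −1.15 points. A promoter width of 2000 bp gave a promoter minus distal GR difference of −0.263 points, an NFI half-site share of 6.75% and a full GRE share of 0.210%, and a q of 0.0001 or less gave −0.686 points for that difference. A motif window of 100 bp to either side gave an NFI half-site share of 9.12%. Leaving out 1 library at a time moved the promoter minus distal GR difference between −1.11 (without ExN replicate 1) and 6.58 points (without NR replicate 1), with −0.592, −0.0494 and −0.320 points without InN replicate 1, InN replicate 3 and ExN replicate 3. It moved InN minus ExN between −9.87 and 2.55 points for GR and between −11.5 and 3.98 points for NFIA, where both upper values came from leaving out ExN replicate 1, and InN minus Oligo NFIA between −1.89 (without NR replicate 1) and 5.05 points, with −1.03 points without NR replicate 3. The number of members ranged from 584 to 5492, the NFI half-site share from 5.04% to 7.19%, the full GRE share from 0.0370% to 0.460%, the TSS distance from 54 to 85 bp and the share of protein-coding genes from 2.78% to 23.9%, and the extremes below 1000 members came from leaving out NR replicate 1 (652 members) or replicate 3. The comparison of astrocytes with other cells ranged from −22.4 to −9.10 points. Labels do not say that replicate numbers pair the libraries, and correlations of same-numbered libraries' deviations ranged from −0.00464 to 0.193. With the replicate block the differences were the same (33.6 points for GR-Con minus GR-KO, exact sign-flip p = 0.500). No call could change there, since sign-flips over so few pairs cannot reach 0.05. Read depth is unknown, and a library with few peaks limits what its share can show. A library that called 0 of 5557 members allows a share of up to 0.0691% by counting error (Wilson upper limit).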
